A study of Eucalyptus grandis and Eucalyptus globulus with 10 samples.

Results

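The transcripts described here are the 60 array features that set the 2 clones of Eucalyptus globulus farthest apart in differentiating xylem, out of 21413 features measured. They were chosen from the measured values. For every feature the gap was taken as the lowest log2 value of the higher clone minus the highest log2 value of the lower clone, over 2 arrays per clone, and the 60 features with the largest gap were kept. The levels of the E. globulus clones are therefore given as a description and carry no test, while the E. grandis arrays took no part in the choice. Of the 60 transcripts, 23 were higher in E. globulus clone B and 37 were higher in clone A.

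Total RNA came from field-grown trees that were 4 years old, and every sample had its own array, read with the dye Cy3. A ramet is a single tree of a clone, and all ramets of that clone carry 1 genotype. The 5 groups of 2 ramets were E. grandis clone A leaf (mature blades with the central vein removed), E. grandis clone A xylem, E. grandis clone B xylem, E. globulus clone A xylem and E. globulus clone B xylem. The leaves were taken from the same 2 trees as the clone A xylem of E. grandis, and the letters A and B name unrelated genotypes in each species. No tree received a treatment. Each species was represented by 2 genotypes and leaf by 1, so a level says what these clones had and not what the species has.

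Differentiating xylem is the layer of young wood cells just inside the cambium of the stem. These cells expand, lay down a thick secondary wall of cellulose, xylan and lignin, and then die to become vessels and fibres, so their RNA is rich in transcripts for wall building. Leaf blades are rich in transcripts for photosynthesis. Trees of different genotype can carry alleles with unequal transcription, and a gene may be lacking or silent in some genotypes. An array also reads how well a transcript pairs with its probes, so less transcript in a clone and probes that pair less well with its alleles cannot be told apart. In tissue samples, fewer cells of a type and less RNA per cell cannot be told apart either.

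The feature IDs could not be tied to genes. None of the 60 IDs, and none of all 21413, matched a name in the RefSeq gene table of E. grandis, and the files used here do not pair IDs with genes. The transcripts are therefore given by ID, no function is assigned to any of them, and markers of xylem, leaf or other cell types could not be looked up to check the labelled tissues.

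Values that bear on the labels come before the results. The 10 arrays had similar medians of 219 to 234 expression units. E. globulus clone A ramet 1 had the widest spread of all arrays, since the middle of its log2 values (interquartile range) covered 2.84 units, and that of the other 9 arrays 2.11 to 2.62. Ramets 1 and 2 of E. globulus clone A correlated across features at r = 0.949, while ramet 2 of clone A correlated at 0.981 with each of both clone B arrays. The clone B ramets correlated with each other at 0.978. In overall profile, ramet 2 of clone A thus lay closer to clone B than to its own clone, and features are not independent replicates.

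A value table deposited for the whole series assigned arrays to samples differently from the files of single arrays. Every column in it equalled the block mean of 1 per-array file, but for 9 of 10 samples that file belonged to another sample. By the files of single arrays, the pairs of E. globulus clone A, E. globulus clone B and E. grandis leaf correlated at 0.949, 0.978 and 0.906. With the table's columns as named, the pairs with these labels correlated at 0.748, 0.659 and 0.978. Only 1 of the 60 transcripts was then among the 60 largest gaps. The results below take the sample of each array from the record of its own file, and they rest on that record.

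**Figure D1:**
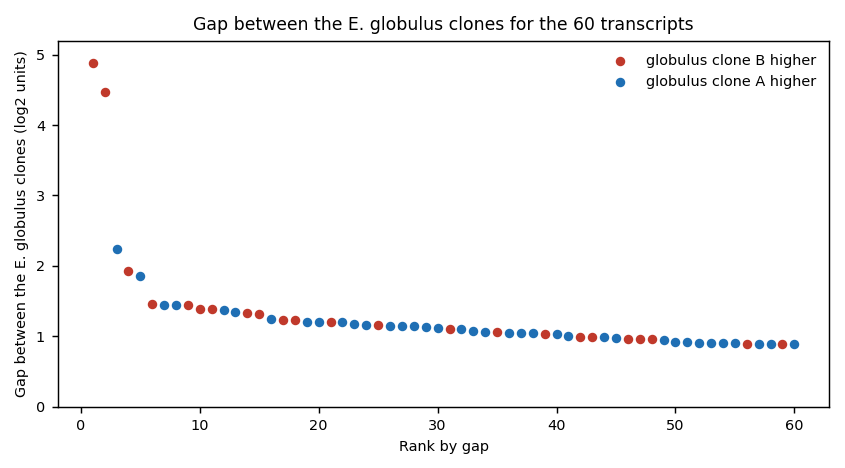
Gap between the E. globulus clones in log2 units (vertical axis) for the 60 transcripts in order of rank (horizontal axis), coloured by the clone with the higher level. A pair of transcripts stands above 4 log2 units, and the curve flattens towards 0.887 at the last rank.

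The gap fell steeply with rank. The clones did not overlap for 8263 of all features, which is 38.6% of them, but 41 features were separated by more than 1 log2 unit, 3 by more than 2 and 2 by more than 4. With 2 arrays per clone, features without a clone difference can also fail to overlap, so the 8263 are no count of differing features. LYPTUS00S00015525 was the last transcript inside the limit, with a gap of 0.887. It had log2 values of 11.56 and 11.44 in clone A and 10.55 and 10.52 in clone B. LYPTUS00S00010261 was the first outside, with a gap of 0.884 and values of 11.73 and 11.14 in clone A and 10.23 and 10.26 in clone B. No natural break lies at the limit, and levels on both sides of it are alike. The clones of E. grandis were farther apart by the same measure, since 754 features exceeded a gap of 0.887 between them and the gap at rank 60 was 1.94. In limma over all 10 arrays, 5 features differed between the E. globulus clones at an adjusted p under 0.05, 0.0234% of those tested. All 5 are among the 60 transcripts, which the choice of large gaps favours, so these calls are no separate support.

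**Figure D2:**
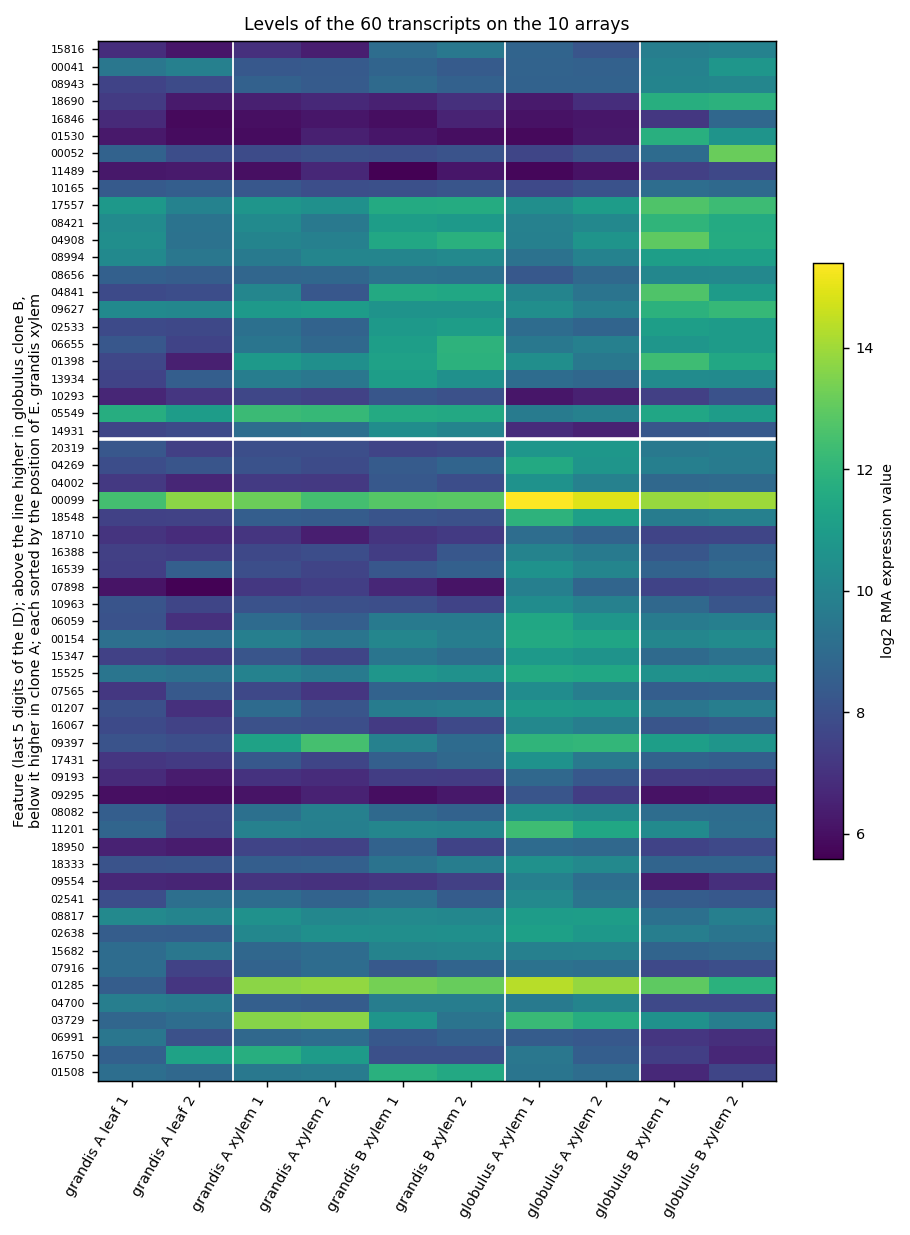
Log2 RMA expression values of the 60 transcripts (rows) on the 10 arrays (columns). Rows above the line were higher in E. globulus clone B (23 transcripts) and rows below it were higher in clone A (37 transcripts), and each set is sorted by where the E. grandis xylem mean lies between the E. globulus clone means.

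A pair of transcripts was bright in E. globulus clone B and dimmer than the median feature on the other 8 arrays. LYPTUS00S00018690 had log2 values of 11.75 and 11.91 on the clone B arrays and of 6.29 and 6.86 on the clone A arrays. In E. grandis it was at 7.29 and 6.31 in leaf, 6.47 and 6.72 in clone A xylem, and 6.48 and 6.96 in clone B xylem. The clone B level lay at the 97.2nd percentile of all features on an array and the clone A level at the 24.5th. LYPTUS00S00001530 followed with 11.80 and 10.68 in clone B and 5.84 and 6.21 in clone A. In E. grandis it was at 6.27 and 5.90 in leaf, 5.90 and 6.46 in clone A xylem, and 6.20 and 5.97 in clone B xylem. Its clone B level lay at the 94.5th percentile and its clone A level at the 12.3rd. For both transcripts all 8 arrays other than those of clone B fell between 5.84 and 7.29, so E. globulus clone A matched E. grandis leaf and xylem and clone B stood alone.

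The counterpart in clone A was a transcript with a smaller step. LYPTUS00S00009554 had log2 values of 9.87 and 9.14 in E. globulus clone A and of 6.35 and 6.89 in clone B. In E. grandis it was at 6.70 and 6.62 in leaf, 7.08 and 6.98 in clone A xylem, and 7.14 and 7.43 in clone B xylem. Here E. globulus clone B matched E. grandis, all 6 of whose arrays lay below both clone A arrays. LYPTUS00S00018333 was also higher in clone A, at 10.55 and 10.21 against 8.77 and 8.75 in clone B. Its E. grandis levels were graded, at 8.10 and 8.13 in leaf, 8.52 and 8.60 in clone A xylem, and 9.33 and 9.74 in clone B xylem. For this transcript the mean of E. grandis xylem matched clone B, yet E. grandis clone B by itself lay between the E. globulus clones.

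**Figure D3:**
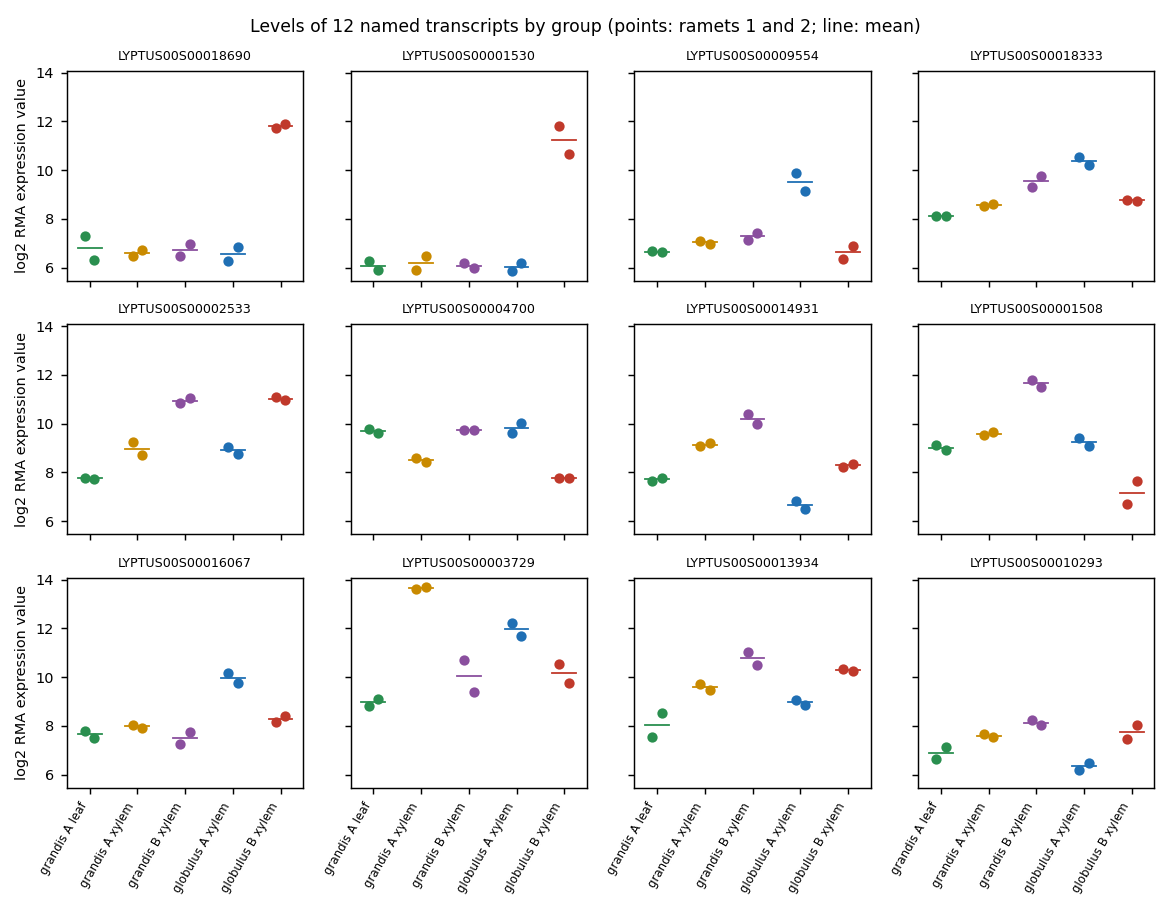
Log2 RMA expression values of 12 of the named transcripts (vertical axis) in the 5 groups (horizontal axis), where points are ramets 1 and 2 and the line is their mean. LYPTUS00S00018690 and LYPTUS00S00001530 are high in E. globulus clone B only, while LYPTUS00S00002533 and LYPTUS00S00003729 separate the E. grandis clones too.

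Some transcripts that separated the E. globulus clones also separated the E. grandis clones. LYPTUS00S00002533 had log2 values of 11.08 and 10.98 in E. globulus clone B and of 9.05 and 8.77 in clone A. In E. grandis xylem it was at 10.84 and 11.05 in clone B and at 9.23 and 8.71 in clone A, with 7.78 and 7.73 in leaf. The xylem of both species thus showed the same pair of levels, 1 per clone, and leaf lay below them all. LYPTUS00S00003729 was at 12.23 and 11.69 in E. globulus clone A and at 10.54 and 9.77 in clone B. In E. grandis xylem it was at 13.61 and 13.69 in clone A and at 10.70 and 9.37 in clone B, with 8.84 and 9.11 in leaf. E. grandis clone A was the highest group for this transcript, and E. grandis clone B overlapped E. globulus clone B.

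Other transcripts put the E. globulus clones on the same side of E. grandis xylem. LYPTUS00S00014931 had log2 values of 8.23 and 8.34 in E. globulus clone B and of 6.84 and 6.52 in clone A. All 4 E. grandis xylem arrays were above both, at 9.08 and 9.20 in clone A and 10.38 and 10.01 in clone B, while leaf was at 7.64 and 7.78. LYPTUS00S00005549 was at 11.41 and 11.00 in E. globulus clone B and at 9.68 and 9.89 in clone A. Its E. grandis xylem levels of 12.29, 12.16, 11.58 and 11.51 (clone A, then clone B) were higher than in either E. globulus clone, and its leaf levels were 11.71 and 11.00. For both of these transcripts clone B was the E. globulus clone nearer to E. grandis xylem.

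For E. grandis xylem the same was seen with the order of the E. globulus clones turned. LYPTUS00S00001508 was at 9.40 and 9.09 in E. globulus clone A and at 6.70 and 7.64 in clone B. E. grandis leaf, at 9.12 and 8.91, and clone A xylem, at 9.53 and 9.66, matched E. globulus clone A, while E. grandis clone B was the highest group, at 11.81 and 11.51. LYPTUS00S00016067 was at 10.15 and 9.77 in E. globulus clone A and at 8.17 and 8.40 in clone B. All 6 E. grandis arrays lay between 7.25 and 8.03, below both E. globulus clones.

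In a further set of 3 transcripts the E. grandis xylem mean lay between the E. globulus clones. LYPTUS00S00004700 was at 9.63 and 10.01 in E. globulus clone A and at 7.77 and 7.76 in clone B. E. grandis leaf, at 9.78 and 9.63, and clone B xylem, at 9.73 and 9.76, matched E. globulus clone A, whereas clone A xylem lay lower, at 8.58 and 8.45. LYPTUS00S00009627 was at 11.88 and 12.17 in E. globulus clone B, 10.42 and 9.86 in clone A, and between 10.14 and 11.03 on the 6 E. grandis arrays. LYPTUS00S00007916 was at 9.27 and 9.16 in E. globulus clone A and at 7.76 and 7.96 in clone B. Its E. grandis xylem values ran from 8.34 to 9.07, between the clones, and its leaf arrays disagreed, at 9.06 and 7.51.

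LYPTUS00S00013934 was at 10.34 and 10.27 in E. globulus clone B and at 9.07 and 8.87 in clone A. E. grandis xylem stood at 9.74 and 9.47 in clone A and at 11.04 and 10.50 in clone B, and leaf at 7.56 and 8.54. LYPTUS00S00010293 was dimmer, at 7.45 and 8.05 in E. globulus clone B and 6.18 and 6.49 in clone A. E. grandis xylem was at 7.67 and 7.54 in clone A and 8.23 and 8.02 in clone B. For this pair the mean of E. grandis xylem matched E. globulus clone B, the higher clone. For LYPTUS00S00013934, E. grandis clone A by itself lay below E. globulus clone B and E. grandis clone B above it.

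To say for every transcript which E. globulus clone matched E. grandis, the E. grandis mean was placed on a scale from 0, the mean of the lower E. globulus clone, to 1, the mean of the higher clone. A position within 0.25 of 0 was called a match to the lower clone and one within 0.25 of 1 a match to the higher clone. Over E. grandis xylem, 11 of the 60 transcripts matched E. globulus clone A and 11 matched clone B. A further 15 lay between the clones, 18 lay beyond the lower clone and 5 beyond the higher clone. Among all 8263 features whose E. globulus clones did not overlap, 16.0% matched clone A and 17.7% matched clone B, shares near those of the 60 transcripts. Ranks 61 to 120 held 5 matches to clone A and 18 to clone B. With wider limits, within 0.33 of either clone mean on this scale, the 60 transcripts gave 17 matches to clone A and 12 to clone B, so the equal split rests on the limits and on the number of ranks taken.

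E. grandis xylem was most often on the side of the lower E. globulus clone. It was nearer to the lower clone for 45 of the 60 transcripts, which were 17 of the 23 higher in clone B and 28 of the 37 higher in clone A. The same was true of 48 of the 60 features at ranks 61 to 120 and of 4679 of the 8263 features whose clones did not overlap (56.6%). Without E. globulus clone A ramet 1, the array of widest spread, the count stayed at 45, and leaving out any other xylem array gave 42 to 47. With only the E. grandis xylem arrays from the earlier series of array numbers, the series that holds every E. globulus array, it was 47. With the value table's columns as named it was 14.

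Transcripts higher in E. globulus clone B and those higher in clone A were counted apart by where E. grandis lay. Of the 23 higher in clone B, 10 had an E. grandis xylem mean that matched clone A, 2 a mean that matched clone B and 8 a mean between the clones, while 1 lay beyond the lower clone and 2 beyond the higher. Of the 37 higher in clone A, 9 matched clone B and 1 matched clone A, while 17 lay beyond the lower clone, 3 beyond the higher and 7 between. These classes use the mean of both E. grandis clones, which can be unlike. The 1 match to clone A was LYPTUS00S00003729, with E. grandis clone A at position 1.94 and clone B at -0.067. LYPTUS00S00009397, among the 9, had them at 0.856 and -1.28. Taken singly for the 37, E. grandis clone A matched E. globulus clone A for 4 and clone B for 8. E. grandis clone B matched them for 3 and 13. For 12 of these 37 both clone B arrays were still above all 4 E. grandis xylem arrays, which was so for 0 of the 23 in the other direction (there, of the clone A arrays). Both clone A arrays were above all 6 E. grandis arrays for 30 of the 37, and both clone B arrays for 14 of the 23. Whether the directions differ in this was not tested.

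The array of clone A ramet 1 moves with the larger set. Ramet 1 was above ramet 2 of E. globulus clone A for 32 of the 37 transcripts higher in clone A, and it was the highest of the 10 arrays for 28 of them. In the 23 transcripts higher in clone B it was above ramet 2 for 8. Its wider spread of values was given above, and its part in the direction counts was not tested. The gap uses the array nearest to the other clone, so for the transcripts higher in clone A it was set by ramet 2 wherever ramet 1 was higher, and for those higher in clone B by ramet 1 wherever that was higher. Without ramet 1, 44 of the 60 transcripts were still among the 60 largest gaps. Without ramet 2 only 19 were, and without clone B ramet 1 or ramet 2 the numbers were 24 and 30.

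**Figure D4:**
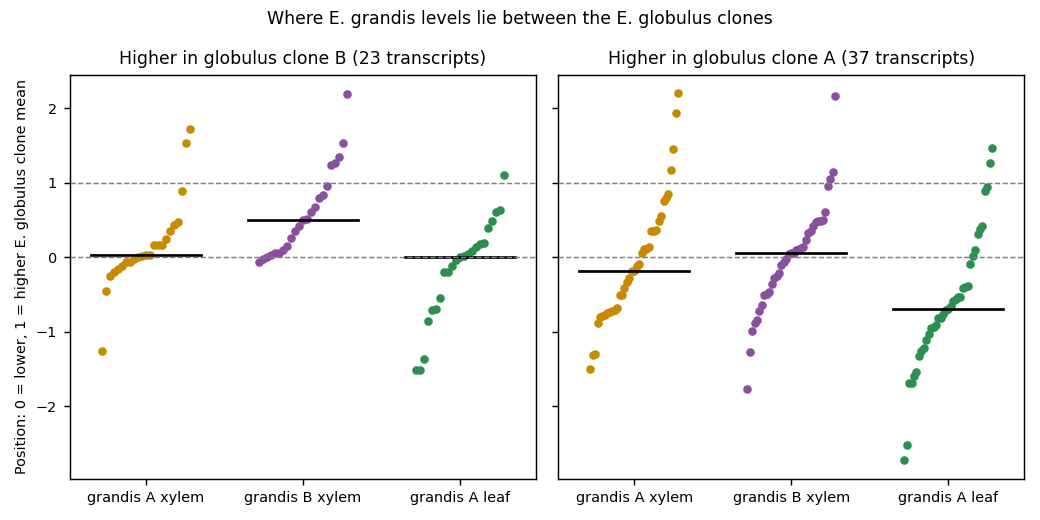
Position of the E. grandis group means on the scale from the lower (0) to the higher (1) E. globulus clone mean (vertical axis), 1 point per transcript, sorted within each group, with the median as a black line. For the 23 transcripts higher in E. globulus clone B, the median is 0.029 for E. grandis clone A xylem, 0.50 for clone B xylem and 0.011 for leaf.

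The clones of E. grandis did not always take the same side. Of the 60 transcripts, 15 had both E. grandis clones nearer to E. globulus clone A in xylem and 29 had both nearer to clone B. In 13, E. grandis clone A was nearer to E. globulus clone A and E. grandis clone B to E. globulus clone B, and in 3 it was the other way round. LYPTUS00S00002533 and LYPTUS00S00003729 are among the 13, and LYPTUS00S00004700 is among the 3. In the transcripts higher in E. globulus clone B, E. grandis clone A xylem had a median position of 0.029 and matched the lower clone in 14 of 23, while clone B xylem had a median position of 0.50 and matched it in 8. In those higher in E. globulus clone A, the median positions were -0.18 for E. grandis clone A and 0.061 for clone B.

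E. grandis leaf lay outside the E. globulus levels more often than E. grandis xylem did, for 36 of the 60 transcripts against 23, a difference that was not tested. Leaf matched E. globulus clone A for 13 transcripts and clone B for 4, lay between for 7, beyond the lower clone for 34 and beyond the higher clone for 2. Among the 8263 features without overlap, leaf matched clone A for 10.8% and clone B for 12.0%. It lay beyond the lower clone for 33.6% and beyond the higher clone for 29.0%. E. grandis xylem lay beyond them for 24.3% and 18.5% of the 8263, so leaf was more often outside there too. At ranks 61 to 120 leaf matched clone A for 3 features and clone B for 7, the other order from the 60 transcripts. It lay beyond the lower clone for 42 of these features. It was nearer to the lower clone for 53 of 60 (88.3%), against 54 of 60 at ranks 61 to 120 and 4466 of 8263 (54.0%) among all features whose E. globulus clones did not overlap. Leaf and xylem of E. grandis were nearer to the same E. globulus clone for 50 of the 60, as 20 pointed to clone A in both and 30 to clone B in both. The leaf arrays all belonged to the later series of array numbers and the E. globulus arrays all to the earlier, so tissue, species and series cannot be told apart in this comparison.

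Differences within E. grandis were tested with limma over the 6 E. grandis arrays, which took no part in the choice. The p-values were adjusted over all 21413 features. The choice did use xylem arrays, and the 60 transcripts were brighter than most features in E. grandis (median percentile 67.8). The differences are thus not independent of the kind of transcript chosen, and the part of this in them was not tested. The first question was whether the transcripts differed between leaf and xylem of clone A. At an adjusted p under 0.05, 16 of the 60 differed, against a background of 23.3% of all features, and this share is close to the background. Of these, 14 were higher in xylem (background 12.6%) and 2 higher in leaf (background 10.7%). The difference of leaf from xylem was negative for 47 of the 60 and positive for 13, while it was positive for 53.4% of all features. Its median was -0.23 in the transcripts higher in E. globulus clone B and -0.43 in those higher in clone A, beside 0.042 over all features. The number of negative differences was 44 after the arrays had been scaled to equal spread and 45 after quantile normalisation.

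LYPTUS00S00001285 had log2 values of 8.50 and 7.13 in leaf, 13.68 and 13.82 in E. grandis clone A xylem, and 13.35 and 13.11 in clone B xylem. In E. globulus it was at 14.34 and 13.86 in clone A and 12.96 and 11.86 in clone B, so all 8 xylem arrays were above both leaf arrays. Its leaf minus xylem difference in E. grandis clone A was -5.94 (SE 0.418, limma adjusted p 1.3e-05). For LYPTUS00S00003729, described above, this difference was -4.68 (SE 0.41, limma adjusted p 4.0e-05). These were the largest steps towards xylem among the 60 transcripts.

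The 2 transcripts higher in leaf had small differences. LYPTUS00S00004700 differed by 1.19 (SE 0.267, limma adjusted p 0.00942). LYPTUS00S00000041 was at 9.49 and 9.88 in leaf and at 8.31 and 8.38 in clone A xylem, 8.75 and 8.40 in clone B xylem, a leaf minus xylem difference of 1.35 (SE 0.291, limma adjusted p 0.00776). In E. globulus it was at 9.95 and 10.75 in clone B and 8.71 and 8.63 in clone A, so leaf of E. grandis lay between the E. globulus clones while its xylem matched clone A. Both lost the call without either E. grandis clone A xylem array (limma adjusted p 0.0587 to 0.111), and LYPTUS00S00004700 also with the array number series as a block (0.072). The count of 16 fell without either E. grandis clone A xylem array and rose without either leaf array, as did the count over all features. Such fits leave 1 array in a group. In them the median difference over the 60 was -0.58 to -0.36, against -0.38 with all arrays. With the array number series in the fit as a block the count was 10, beside 3328 of all features (4988 without the block).

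**Figure D5:**
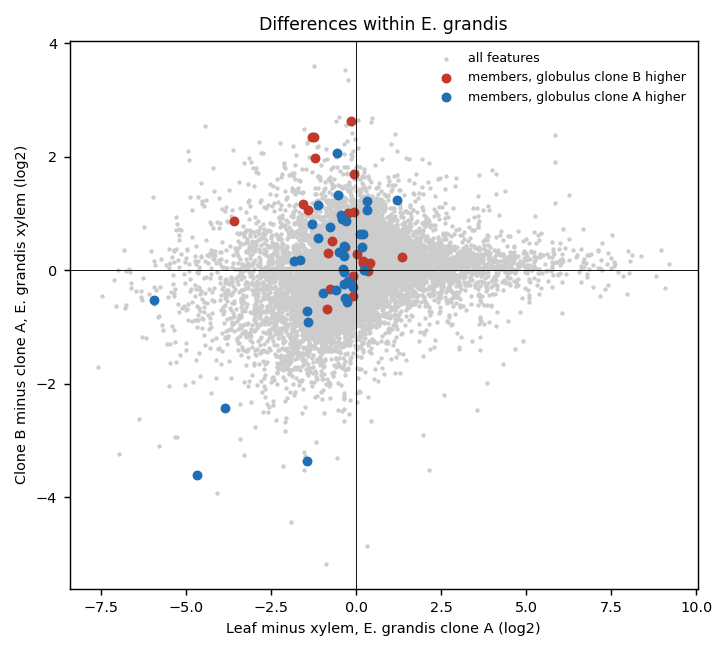
Leaf minus xylem in E. grandis clone A (horizontal axis, log2) against clone B minus clone A in E. grandis xylem (vertical axis, log2) for all features (grey) and the 60 transcripts (coloured by the higher E. globulus clone). The axes share the E. grandis clone A xylem arrays, and most of the 60 points lie left of 0.

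The second question was whether the transcripts also differed between the E. grandis clones. The limma fit called 6 of the 60 against a background of 0.775% of all features. Of these 4 were higher in E. grandis clone B (background 0.276%) and 2 higher in clone A (background 0.5%). The median absolute difference between the E. grandis clones was 0.56 log2 units in the 60 transcripts and 0.24 over all features. The 60 transcripts were brighter than most features in E. grandis, with a median percentile of 67.8, and the part of brightness in this share was not tested. The clone arrays of E. grandis did not overlap for 43 of the 60 transcripts (background 49.8%), where 30 had clone B higher (background 28.4%) and 13 had clone A higher (background 21.4%). Among the 23 transcripts higher in E. globulus clone B, 14 had E. grandis clone B higher without overlap and 2 had clone A higher. Among the 37 higher in E. globulus clone A the numbers were 16 and 11.

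The transcripts called between the E. grandis clones had large steps. LYPTUS00S00015816 was at 9.10 and 9.54 in E. grandis clone B xylem and 6.96 and 6.42 in clone A xylem, a difference of 2.63 (SE 0.349, limma adjusted p 0.0196). In E. globulus it was at 9.79 and 9.94 in clone B and 8.73 and 8.18 in clone A, and in leaf at 6.89 and 6.18. LYPTUS00S00006655 was at 11.09 and 11.92 in E. grandis clone B xylem and 9.41 and 8.90 in clone A xylem, a difference of 2.35 (SE 0.379, limma adjusted p 0.0338). In E. globulus it was at 10.76 and 10.97 in clone B and 9.52 and 9.87 in clone A, and in leaf at 8.24 and 7.58. In both, the clone named B was the higher in each species, a coincidence of names since the letters are not shared.

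LYPTUS00S00003729 was lower in E. grandis clone B than in clone A by -3.62 (SE 0.41, limma adjusted p 0.0141). LYPTUS00S00009397 had log2 values of 11.26 and 12.52 in E. grandis clone A xylem and 9.89 and 9.02 in clone B xylem, a difference of -2.44 (SE 0.442, limma adjusted p 0.0457). It was at 12.00 and 12.11 in E. globulus clone A, 11.10 and 10.72 in clone B, and 8.11 and 7.96 in leaf, so E. grandis clone A matched E. globulus clone A and E. grandis clone B was below both. With ramet number as a block its adjusted p was 0.0547. The other calls were LYPTUS00S00001508, higher in E. grandis clone B by 2.06 (SE 0.278, limma adjusted p 0.0216), and LYPTUS00S00002533, higher in clone B by 1.98 (SE 0.293, limma adjusted p 0.0287).

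These calls rest on few arrays. With the array number series as a block, 3 of the 6 held, LYPTUS00S00003729, LYPTUS00S00009397 and LYPTUS00S00015816, and the background count fell from 166 to 35 features. Within the earlier series the clone B minus clone A differences of these 3 were -2.99, -2.63 and 2.68, and within the later series -4.24, -2.24 and 2.58. For LYPTUS00S00006655, LYPTUS00S00001508 and LYPTUS00S00002533 they were 2.19, 2.15 and 2.13 in the earlier series and 2.51, 1.98 and 1.82 in the later. The E. grandis clone arrays did not overlap for any of these 6 transcripts. The direction therefore had to be the same in both series, and this is no further check. In limma with all 6 arrays, 23 of the 60 had an unadjusted p under 0.05, against 12.1% of all features. Without 1 of the 4 E. grandis xylem arrays, which leaves 1 array in a clone, nearly all calls were lost, among the 60 and over all features. The median difference over the 60 was then 0.26 to 0.38, against 0.29 with all arrays. Leaving out either leaf array, whose spread enters the fit, gave more calls among the 60 and over all features.

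The level of the lower E. globulus clone varied widely among the 60 transcripts. Its percentile among all features on an array had a median of 66.0 in the transcripts higher in clone B and of 69.3 in those higher in clone A, and lay below 50 for 6 and 11 of them. For most of the 60 transcripts both clones were thus brighter than the median feature, unlike LYPTUS00S00018690 and LYPTUS00S00001530. The blocks of an array repeat each feature, and every one of the 60 transcripts kept its clones apart in block 1 alone and in block 2 alone. Both blocks entered the values used for the choice, so this is a description and no independent check. The difference between blocks over the 60 transcripts had an SD of 0.258 to 0.498 log2 units, the highest on leaf ramet 1. All 60 had the full 9 probe pairs in a block. Their ID numbers spread over the range. The lower, middle and upper parts, of 7138, 7137 and 7138 features, held 22, 20 and 18 transcripts. None had the number next to another's.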

How the data were processed

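The authors deposited RMA expression intensities on a linear scale per feature and block (9 probe pairs nominally, 2 blocks per array), per the file headers. RMA (robust multi-array average) is named in the submitters' processing notes, and its version and settings are not given in the sources used here. Log2 values were taken from the deposited intensity values and both blocks averaged, with no filter and no further normalisation. The members and lists were chosen with earlier results of these data known. Tests used limma 3.58.1 in R 4.3.3 (files read with the package data.table, version 1.17.8) over the 6 E. grandis arrays with 1 mean per group, which left 3 residual degrees of freedom, with Benjamini-Hochberg adjustment over 21413 features and a threshold of 0.05. The limma code was tested on simulated data. Tables and figures used Python 3.11.15, pandas 2.3.3, NumPy 2.4.6, SciPy 1.17.1 and Matplotlib 3.10.9. The precision is limited by 2 arrays per group, and the p-values rest on the spread between trees of 1 genotype.

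Transcripts were named by a rule: in each direction the 3 largest gaps, the 2 largest gaps of each class of E. grandis xylem level, the 2 largest called differences of each sign in each E. grandis test, and the features at the limit. The planned marker lists were not used, since 0 IDs matched a gene name, and the human control features of the array are not marked in the files used here. Per the labels, a ramet number of E. grandis clone A stands for 1 tree in both tissues, so leaf and xylem are paired there, and the ramet differences of these tissues correlated across features at -0.354. Between xylem groups, whose numbers mark different trees, ramet 1 minus ramet 2 correlated positively in all 6 pairs of groups, at 0.188 to 0.642, and at 0.517 between the E. globulus clones on which the gap rests. Alternatives were other scalings, single blocks, other limits, ramet number or the array number series as a block, and leaving out each array. This series is that of the numbers in the file headers, 6 arrays in the earlier and 4 in the later.

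In the value table that the authors deposited for the series, each column was 10000 times the average intensity over both blocks in a single array file, so its scale is known and it is not centred, and its columns stand in ascending order of array number. Its column medians were 2366804 and 2316820.5 (leaf), 2310113 and 2239949.5 (E. grandis clone A xylem), 2260218 and 2253241 (clone B), 2373949.5 and 2312826.5 (E. globulus clone A), and 2212800.5 and 2233937.5 (clone B), as named. Whether the table or the files name the samples rightly is not known.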

Additional observations from a re-analysis of the deposited data

How the results depend on the processing

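Quantile normalisation, equal interquartile ranges, single blocks and the linear block mean kept 44 to 60 of the 60 transcripts among the largest gaps, but ranking by the difference of clone means kept 30, and leaving out 1 E. globulus array kept 19 to 44. With limits of 0.33 and 0.67, 17 transcripts matched E. globulus clone A in xylem. Leaving out 1 array gave 11 to 15 (clone A) and 9 to 15 (clone B) matches in xylem and 10 to 13 and 3 to 6 in leaf. With the value table's columns as named, 1 transcript was shared, 5 and 3 matched clones A and B in xylem and 2 and 0 in leaf, and 14 (xylem) and 12 (leaf) were nearer the lower clone. Leaf minus xylem then called 2 features and 2 of the 60, and clone B minus clone A 446 and 18. The E. globulus clone B minus clone A difference reversed there for LYPTUS00S00018690 (-0.75), LYPTUS00S00001530 (-0.24), LYPTUS00S00002533 (-0.96), LYPTUS00S00014931 (-0.40), LYPTUS00S00003729 (2.24), LYPTUS00S00009397 (1.05), LYPTUS00S00015816 (-1.63) and LYPTUS00S00006655 (-1.59), since the columns then hold other arrays.

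Leaving out 1 array gave 2994 to 7650 features and 8 to 25 of the 60 for leaf minus xylem, and 0 to 2774 and 0 to 25 for the E. grandis clones. The 0 features came from limma without clone B ramet 1 or ramet 2, where 1807 and 1070 features had an unadjusted p under 0.05, and the lone array of a group is then assumed to vary like the others. With the array number series as a block, leaf minus xylem called 10 of the 60, and clone B minus clone A called 35 features and 3 of the 60. Over all 10 arrays the E. grandis clones differed in 285 features. With the ramet number as a replicate block, leaf minus xylem called 4530 features and 14 of the 60, clone B minus clone A 116 and 5, and among the named calls LYPTUS00S00009397 was lost between the clones (limma adjusted p 0.0547) and LYPTUS00S00006655 between leaf and xylem (0.0571). The cause of these shifts was not tested.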

Other observations

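Of the 60 transcripts, 22 differed by more than 1 log2 unit between the ramets of at least 1 group. Of these, 13 did so in leaf and 7 in E. globulus clone B. The median absolute difference between leaf ramets was 0.44 log2 units in the 60 and 0.52 over all features. Between the ramets of E. globulus clone B both medians were 0.22. The transcripts named here were chosen after their values were seen. LYPTUS00S00000052 was at 9.01 on E. globulus clone B ramet 1 and at 13.17 on ramet 2, and it lay between 7.65 and 8.68 on the other 8 arrays. It was the exception among the 60. In the other 59 the difference of the clone means was larger than the difference between ramets in each clone. The choice by large gaps favours that. LYPTUS00S00016846 was at 7.18 and 8.88 on the clone B arrays and between 5.84 and 6.75 on the other 8. LYPTUS00S00016750 was at 8.59 and 11.23 in E. grandis leaf, 11.73 and 10.98 in E. grandis clone A xylem, and between 6.67 and 9.48 on the other 6 arrays. Ramets are separate trees of 1 genotype, so these values describe trees or samples and no group.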
